A study of Mus musculus with 31 samples.

Results

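The GABA-A receptor subunit genes described here are Gabra2, Gabra3, Gabra4 and Gabra5, which encode alpha subunits, Gabrb1 and Gabrb2, which encode beta subunits, and Gabrg1, which encodes a gamma subunit. They were taken by gene symbol, and all 7 were found among the 23258 genes kept in each of 2 deposited expression tables. The study measured poly(A) RNA of mouse neocortex at 2 ages, embryonic day 13 (E13) and birth (P0). The mice were wild type (WT) or carried the label cKO, a conditional knockout of Elavl1, whose product HuR binds RNA. Each group is 1 kind of RNA: total lysate, a monosome pool (sucrose gradient fractions 4 to 7 of 14, which hold ribosomal subunits and single ribosomes) or a polysome pool (fractions 9 to 12). Cycloheximide, which stalls ribosomes on mRNA, was in the lysis buffer of all groups.

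For each kind of RNA, the WT table held 2 E13 libraries and 3 P0 libraries, numbered from 0. The cKO table held 2 total, 3 monosome and 3 polysome libraries at E13, and 3 total, 2 monosome and 3 polysome libraries at P0, called here columns c0, c1 and c2. The labels do not name the Cre driver, the deleted part of Elavl1, the strain or the number of pups behind a library. Levels are in FPKM (fragments mapped to a gene, scaled by transcript length and by the library's mapped fragments). Elavl1 measured 13.5 to 39.5 FPKM in the WT total RNA libraries and 17.8 to 55.4 in those labelled cKO. Its level was thus not lower in total RNA labelled cKO, and its monosome means were higher under that label at both ages. Its polysome means were lower under that label. At E13 they were 29.4 FPKM against 51.5 in WT, without overlap of libraries. At P0 they were 19.2 against 23.2, with overlap. Because Elavl1 was not lower in every fraction, "labelled cKO" is used throughout. Because nothing says that libraries came from separate animals, p-values measure only the spread between these libraries, which may be technical.

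GABA-A receptors are chloride channels built from a ring of subunits, most often alpha, beta and gamma, and GABA binds between an alpha and a beta subunit. The alpha subunit sets much of the affinity for GABA, the response to benzodiazepines and the place of the receptor at or outside synapses. In immature neurons a high internal chloride concentration lets GABA depolarize the cell, and the subunit make-up of the receptor is known to shift as the forebrain matures. Gabra5 and Gabra3 are known as subunits that are prominent in the developing cortex.

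Of the 7 genes, 4 lie in a cluster on chromosome 5 (GRCm38, GENCODE M21 annotation). Gabrg1 spans 70751047 to 70842617, Gabra2 spans 70957597 to 71095849 and Gabra4 spans 71569749 to 71658308, all on the minus strand, and Gabrb1 spans 71658113 to 72149037 on the plus strand. Gabra4 and Gabrb1 start head to head and share 196 bases, of which 46 are exonic in both, and the library kit does not keep the strand, so fragments from those bases cannot be told apart. Gabra5 lies on chromosome 7 from 57407672 to 57510059 on the minus strand. Gabrb2 lies on chromosome 11 from 42419757 to 42629028 on the plus strand, and Gabra3 on the X chromosome from 72432681 to 72656848 on the minus strand. The longest coding transcript of each gene has 9 or 10 exons.

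The 250 bases before a start site are shown for 4 of the genes, because these genes were higher at P0 together although their upstream windows differ widely in base composition. The sequences are from RefSeq (GRCm38.p6), 5′ to 3′ on the gene's strand, in lower case with each CpG (the letters CG, the same on both strands) in capitals. The windows are chr5:71095850-71096099 for Gabra2, chrX:72656920-72657169 for Gabra3, chr7:57510060-57510309 for Gabra5 and chr5:70842618-70842867 for Gabrg1, each on the minus strand. The bases after this Gabra3 start were not found in a GENCODE M21 transcript of the gene. Those after the start of another Gabra3 window, chrX:72656808-72657057, were found. That window held 0 CpG with a GC content of 39.2%, and it also held the letters TATAAA.
Gabra2: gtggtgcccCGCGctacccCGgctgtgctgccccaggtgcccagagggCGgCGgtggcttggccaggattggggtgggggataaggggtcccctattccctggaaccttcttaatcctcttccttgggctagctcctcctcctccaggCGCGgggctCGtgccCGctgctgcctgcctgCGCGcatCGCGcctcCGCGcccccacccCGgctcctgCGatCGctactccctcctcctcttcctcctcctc
Gabra3: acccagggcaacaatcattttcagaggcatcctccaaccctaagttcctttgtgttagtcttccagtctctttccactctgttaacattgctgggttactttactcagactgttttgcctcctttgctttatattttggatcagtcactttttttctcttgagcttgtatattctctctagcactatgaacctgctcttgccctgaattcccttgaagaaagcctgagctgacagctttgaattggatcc
Gabra5: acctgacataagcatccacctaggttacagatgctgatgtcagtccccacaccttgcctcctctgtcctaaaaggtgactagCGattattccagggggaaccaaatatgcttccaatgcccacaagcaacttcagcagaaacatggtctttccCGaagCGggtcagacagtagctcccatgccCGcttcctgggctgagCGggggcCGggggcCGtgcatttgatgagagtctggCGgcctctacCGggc
Gabrg1: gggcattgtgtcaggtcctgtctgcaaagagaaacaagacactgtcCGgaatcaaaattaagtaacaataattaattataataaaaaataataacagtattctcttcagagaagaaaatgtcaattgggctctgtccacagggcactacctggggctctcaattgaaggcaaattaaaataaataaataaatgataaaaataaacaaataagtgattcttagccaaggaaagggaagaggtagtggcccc
Gabra2 held 18 CpG with a GC content of 70.0%, Gabra5 held 9 with 56.4%, Gabrg1 held 1 with 35.6%, and Gabra3 held 0 with 42.4%. Of the 32851 windows of this length in the table, 92.1% held at least 1 CpG, the median number was 6 and the median GC content was 52.4%. The letters TATAAA, searched on both strands, occurred in the Gabra3 window and not in the other 3 windows printed, against 12.4% of all windows. The windows thus run from CpG-rich to free of CpG among genes that all stood higher at P0. Matches are descriptions of letters only.

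The first comparison set P0 against E13 in WT. The mRNAs of the 7 subunits were each called higher at P0 than at E13 in total RNA. Gabra5 had the widest difference of the 7, from under 1 FPKM to over 40. Gabrb2 followed, and Gabra4, Gabrb1 and Gabrg1 had the smallest differences on the log2(FPKM + 1) scale. As ratios of group means the order differed, with 16.6 for Gabrb1 (1 of its E13 libraries was at 0) and 8.66 for Gabrg1 against 6.67 for Gabra3 and 5.57 for Gabra2. Against this, 24.4% of the 12123 genes tested in WT total RNA were called higher, so a higher level at P0 is common among all genes. A gene entered the tests with a mean of at least 1 FPKM over the libraries of its table, and Gabra5, Gabrb1, Gabrb2 and Gabrg1, which were mostly under 1 FPKM at E13, passed only through their P0 levels. The count of 7 is therefore a description.

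Among the alpha subunits, Gabra5, which is known for receptors outside synapses, measured 0.734 and 0.237 FPKM in the 2 WT total libraries of E13 and 41.3, 45.2 and 49.8 in the 3 of P0. All P0 libraries stood far above both E13 libraries, and the ratio of the group means was 93.6. The log2 fold change on the log2(FPKM + 1) scale, which understates changes of low genes, was 4.98 ± 0.25 (standard error, SE; adjusted p = 2.68e-09, limma with Benjamini-Hochberg adjustment). Gabra3, an alpha subunit known from immature cortex and monoamine neurons, measured 1.63 and 1.93 FPKM at E13 and 16.5, 10.2 and 8.99 at P0. Its log2 fold change was 2.17 ± 0.30 (limma adjusted p = 2.45e-05). All 3 P0 libraries were above both E13 libraries, with library 0 the highest.

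Gabra2, an alpha subunit of synapses on forebrain neurons, measured 2.29 and 2.08 FPKM at E13 and 17.8, 13.2 and 5.53 at P0 in WT total RNA. Library 2 was the lowest of P0 but still above both E13 libraries. The log2 fold change was 1.92 ± 0.56 (limma adjusted p = 0.00939), and the call was lost without E13 total library 1 (1.87, adjusted p = 0.0607). Gabra4, an alpha subunit that pairs with delta outside synapses in the mature forebrain, measured 1.82 and 1.67 FPKM at E13 and 5.14, 4.85 and 5.59 at P0. Its P0 libraries lay close together, and its log2 fold change was 1.17 ± 0.23 (limma adjusted p = 0.000619).

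Of the beta subunits, which help form the GABA binding site and anchor the receptor, Gabrb2 measured 0.338 and 0.169 FPKM at E13 and 14.5, 13.8 and 9.52 at P0 in WT total RNA. Both E13 libraries were under 1 FPKM, and the log2 fold change was 3.42 ± 0.36 (limma adjusted p = 1.33e-06). Gabrb1 measured 0 and 0.211 FPKM at E13 and 2.08, 1.64 and 1.53 at P0, a log2 fold change of 1.31 ± 0.28 (limma adjusted p = 0.00112). Gabrb1 thus remained a low mRNA at both ages.

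The gamma subunit gene Gabrg1 measured 0.287 and 0.116 FPKM at E13 and 1.88, 2.21 and 1.14 at P0. Its log2 fold change was 1.17 ± 0.25 (limma adjusted p = 0.000919). In order of mean level in WT P0 total RNA, Gabra5 (45.4 ± 4.26 FPKM, SD, n = 3) stood above all others. Gabrb2 (12.6 ± 2.69), Gabra2 (12.2 ± 6.21) and Gabra3 (11.9 ± 4.03) overlapped one another. Gabra4 (5.19 ± 0.375) overlapped Gabra2 through P0 library 2 only, and Gabrb1 (1.75 ± 0.292) and Gabrg1 (1.74 ± 0.548) shared the lowest place.

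**Figure D1:**
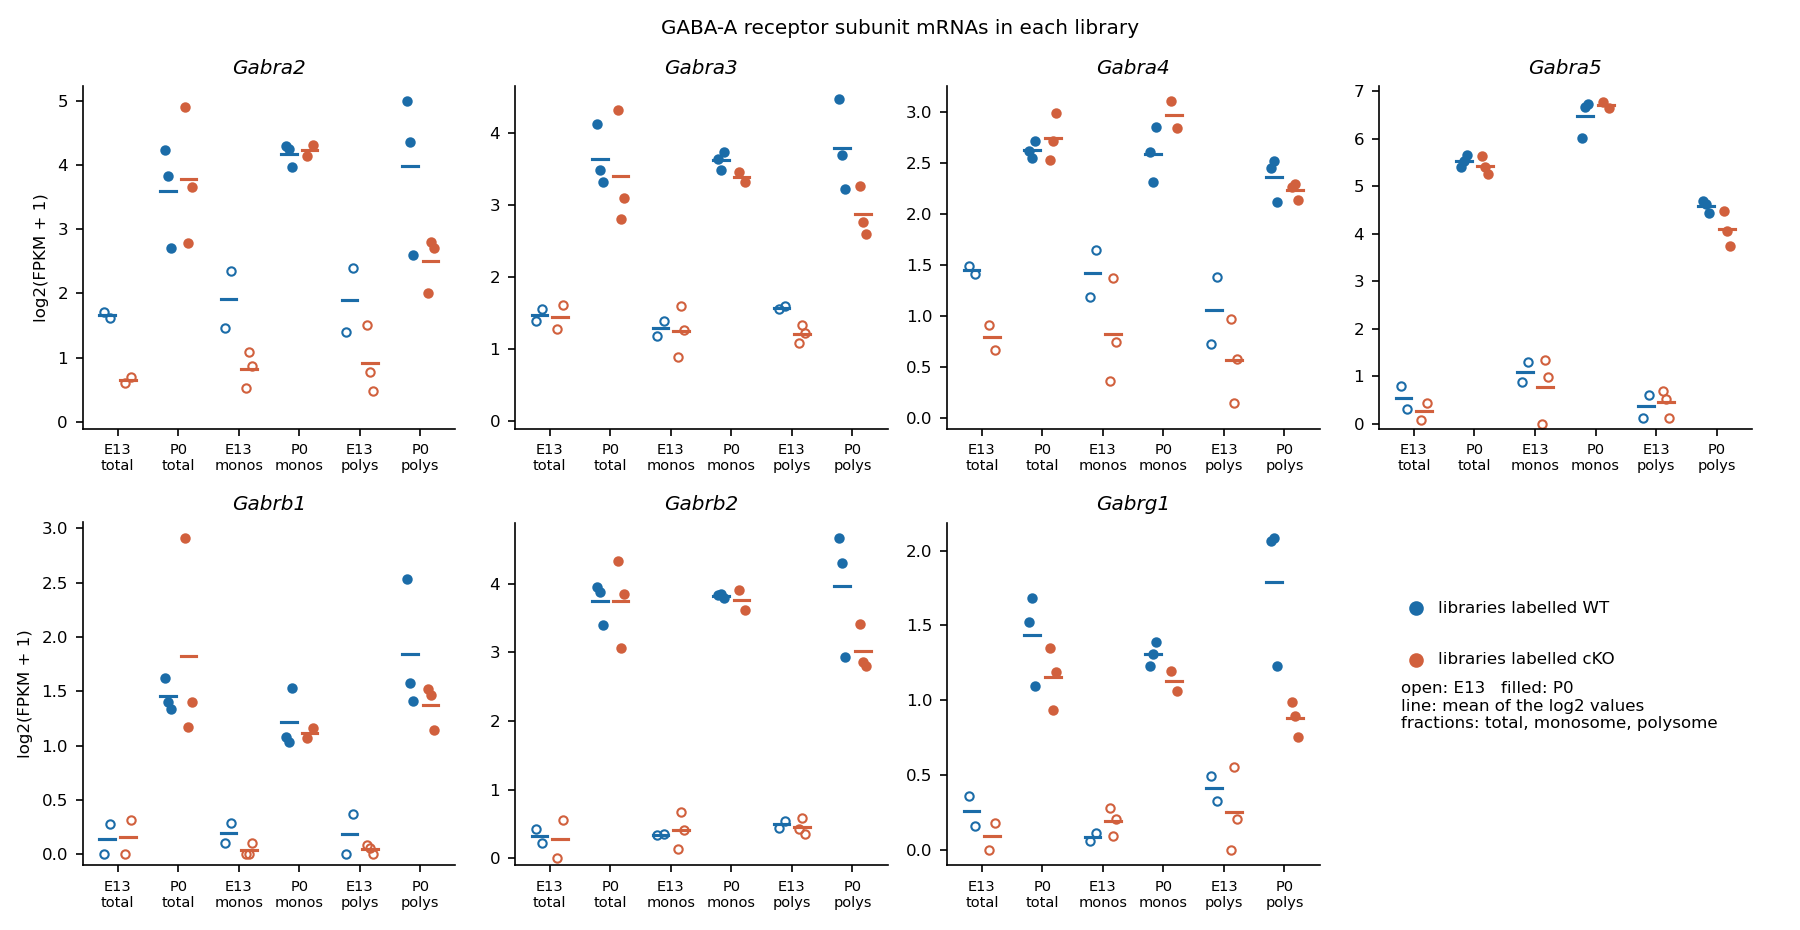
Level of each subunit mRNA in every library as log2(FPKM + 1), by age and RNA fraction, for libraries labelled WT (blue) and cKO (orange); open points are E13, filled points are P0 and lines are group means of the log2 values. The vertical scales differ between panels, and Gabra5 rises from 0.237 and 0.734 FPKM to 41.3 to 49.8 FPKM in WT total RNA.

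The age difference was present in both gradient pools of WT. In monosome RNA all 7 genes were called higher at P0, against 20.4% of all genes, and in polysome RNA all 7 were called higher, against 23.7%. The genes tested were the same as in total RNA and passed the same filter, so these counts are descriptions too. Gabra5 measured 0.843 and 1.45 FPKM in E13 monosome RNA and 63.6, 101 and 106 at P0, and 0.094 and 0.527 in E13 polysome RNA and 24.7, 23.9 and 20.7 at P0. Its log2 fold change was 5.39 ± 0.25 in monosome RNA (limma adjusted p = 9.89e-10) and 4.21 ± 0.25 in polysome RNA (7.86e-09). Gabrb2 differed by nearly equal amounts in the pools, 3.48 ± 0.36 and 3.47 ± 0.36, and Gabra3 by 2.33 ± 0.30 and 2.22 ± 0.30. The median over all genes was -0.27 in monosome and -0.19 in polysome RNA. Gabra2 (2.26 ± 0.56 and 2.09 ± 0.56) lost its call without E13 monosome library 0 (1.81, adjusted p = 0.0569) and without E13 polysome library 0 (1.58, 0.0867). Gabrb1 lost its monosome call without E13 monosome library 0 (0.92, 0.0575).

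In the libraries labelled cKO, Gabra5, Gabrb2, Gabra2, Gabra3, Gabra4 and Gabrb1 were also higher at P0 in each fraction, and Gabrg1 did not pass the filter on low values (mean 0.615 FPKM). The 6 genes tested were called higher in total RNA against 27.8% of the 12302 genes tested, in monosome RNA against 26.3% and in polysome RNA against 30.4%. Gabra2, Gabra4, Gabra5, Gabrb1 and Gabrb2 had E13 means under 1 FPKM in each fraction and passed the filter only through their P0 levels. The count of 6 is therefore a description. Gabra5 measured 0.062 and 0.358 FPKM in E13 total RNA and 48.9, 41.4 and 37.6 at P0, a log2 fold change of 5.17 ± 0.33 (limma adjusted p = 1.29e-09). Gabra2 measured 0.524 and 0.62 FPKM at E13 and 28.8, 5.86 and 11.6 at P0 (3.13 ± 0.44, adjusted p = 1.18e-05), with column c0 far above the other columns. Gabra4 measured 0.885 and 0.594 FPKM at E13 and 4.77, 5.57 and 6.97 at P0 (1.95 ± 0.30, limma adjusted p = 2.54e-05). All P0 values of these genes were above all E13 values.

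Gabrb2 differed by 3.48 ± 0.32, Gabra3 by 1.96 ± 0.35 and Gabrb1 by 1.67 ± 0.36 in cKO total RNA. In polysome RNA the differences ran from 1.33 ± 0.32 for Gabrb1 to 3.64 ± 0.29 for Gabra5. The Gabrb1 call in monosome RNA (1.08 ± 0.36, limma adjusted p = 0.0192) was lost without either P0 library, at 1.13 (0.0763) without c0 and 1.03 (0.104) without c1. Without a filter, Gabrg1 was also called higher, by 1.07 ± 0.16 in total RNA (limma adjusted p = 0.000154), 0.93 ± 0.16 in the monosome pool and 0.63 ± 0.14 in the polysome pool.

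**Figure D2:**
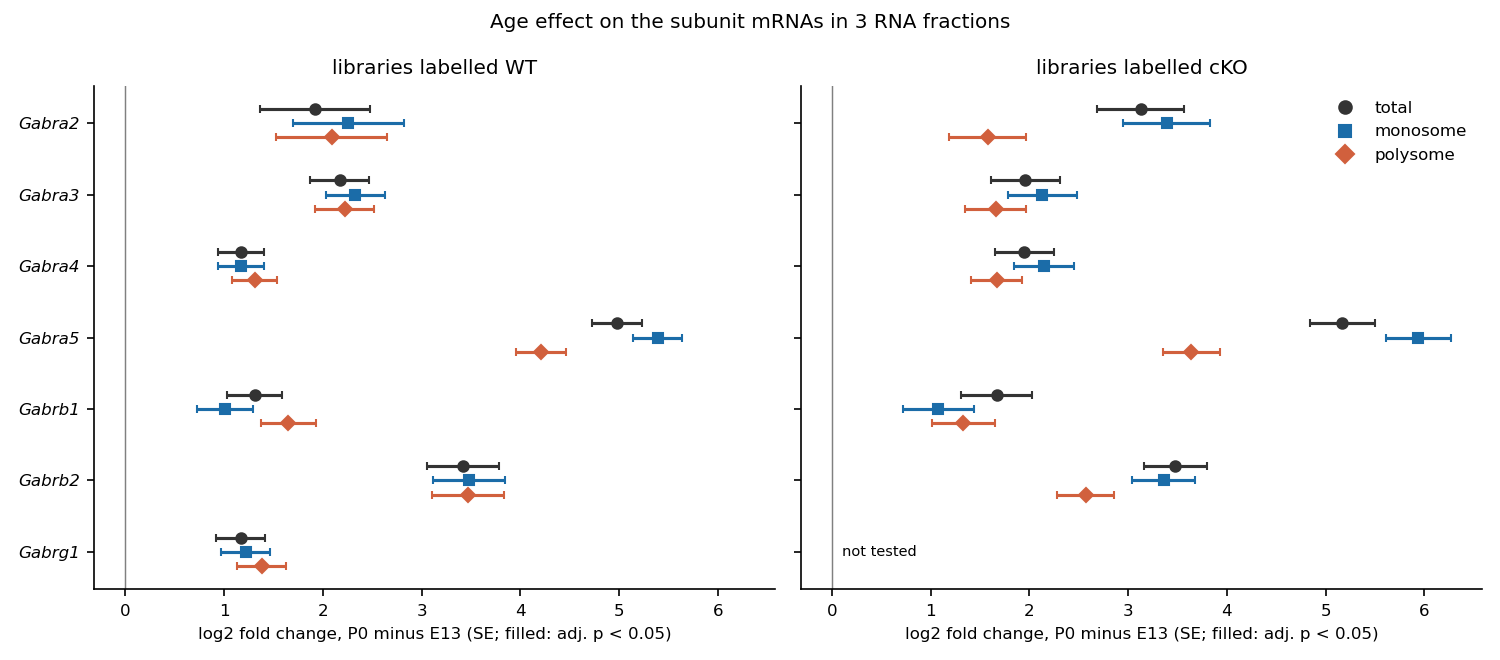
Age effect (P0 minus E13) as log2 fold change with its SE for each subunit gene in total, monosome and polysome RNA; left, libraries labelled WT, right, libraries labelled cKO, and filled symbols have an adjusted p under 0.05. All symbols lie above 0, and Gabra5 lies farthest to the right in each fraction, up to 5.94 in cKO monosome RNA.

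Levels of several cell type markers differed between the ages. All 7 neocortex identity markers, such as Emx1, had a mean of at least 1 FPKM in all 12 groups. Of 5 cerebellar granule cell markers, Gabra6 stayed at or below 0.0305 FPKM, and Barhl1 and Atoh1 averaged 0.0 in WT total RNA. Zic1 and Zic2 were measured there, at means of 13.4 and 9.8 FPKM at E13 and 5.0 and 5.6 at P0. In WT total RNA, the summed FPKM of 8 excitatory neuron markers lay at 195 to 367 at E13 and 527 to 580 at P0, and 4 of the 8 were called higher and 1 lower. The 12 interneuron markers summed to 14.9 to 48.2 at E13 and 250 to 363 at P0, with 10 called higher. Of 8 radial glia markers, 6 were called lower and 2 higher, but their summed FPKM overlapped between the ages. That sum was 969 to 1120 at E13 and 879 to 1380 at P0. Among all genes tested in WT total RNA, 27.9% were called lower and 24.4% higher. The 8 measured of 10 red blood cell markers summed to 7360 to 7530 at E13 and 58.9 to 166 at P0. In these bulk samples, more cells of a type and more RNA per cell cannot be told apart, and the part of these shifts in the subunit values was not tested.

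The share of each gene in the summed FPKM of its subunit class describes the switch in composition, because it does not depend on how libraries were scaled. In WT total RNA, Gabra2, Gabra3 and Gabra4 each held a larger share of the alpha class than Gabra5 at E13, and Gabra5 held the largest share at P0. Gabra5 made up 3.97% and 11.3% of alpha subunit FPKM in the E13 libraries and 49.4% to 68.7% in the P0 libraries, a mean of 7.62% ± 5.16 (SD, n = 2) against 58.8% ± 9.63 (n = 3). The smallest p that 2 against 3 libraries allow is 0.2, and it is the exact permutation p of this share and of the shares of Gabra2 and Gabra3. Gabra2 went from 35.0% ± 0.178 to 15.3% ± 7.01, and Gabra3 from 28.7% ± 5.24 to 15.1% ± 4.05. The Gabra4 share was also smaller at P0 than at E13. None of these shares overlapped between the ages, although the FPKM of each gene was higher at P0.

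Gabra5 also went up as a share in the gradient pools and in the libraries labelled cKO. In WT monosome RNA the Gabra5 share went from 15.8% ± 0.458 (SD, n = 2) to 68.6% ± 6.14 (n = 3), and in WT polysome RNA from 4.20% ± 2.86 to 39.8% ± 12.1. In libraries labelled cKO it went from 5.79% ± 5.37 to 56.4% ± 11.1 in total RNA, from 16.3% ± 14.1 to 72.7% ± 0.801 in monosome RNA and from 11.1% ± 6.32 to 49.5% ± 4.99 in polysome RNA. At E13, Gabra3 was the leading alpha subunit of cKO total RNA, with 50.7% ± 6.16, and went to 12.9% ± 4.04 at P0. The Gabra2 share of cKO total RNA overlapped between the ages, at 16.7% ± 0.172 and 17.9% ± 8.57.

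**Figure D3:**
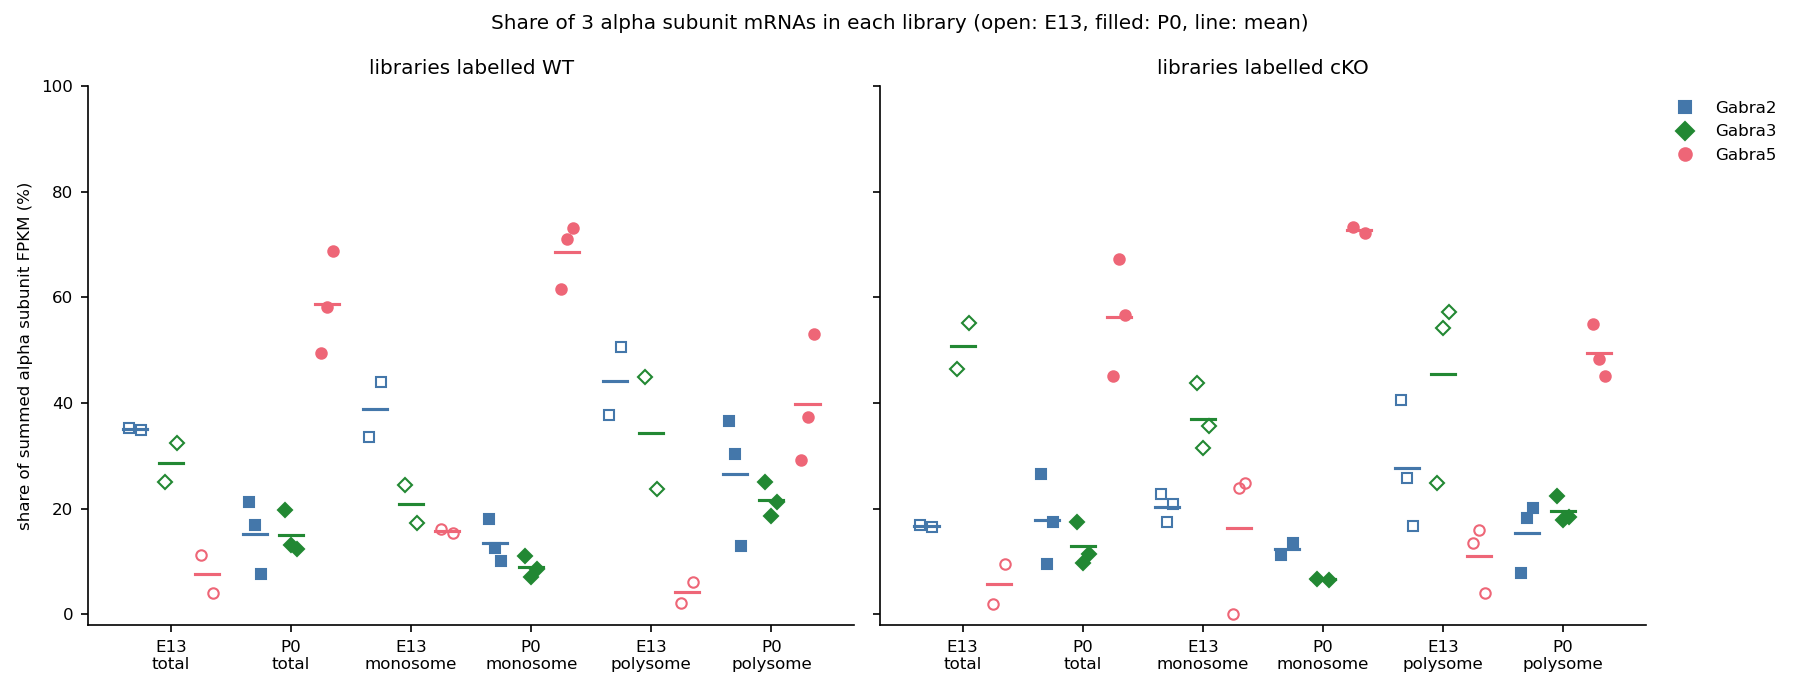
Share of Gabra2, Gabra3 and Gabra5 in the summed alpha subunit FPKM of each library (percent), by age and fraction, for libraries labelled WT (left) and cKO (right); 1 point is 1 library, open points are E13, filled points are P0 and lines are means. Gabra5 lies at 49.4% to 68.7% in WT P0 total RNA and lower in WT P0 polysome RNA (29.2% to 53.0%).

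The second comparison set polysome against monosome RNA at 1 age. Gabra5 was lower in polysome than in monosome RNA at both ages in WT, while the differences of the other 6 members lay between -0.36 and 0.63 on the log2 scale. Of the Gabra5 values given above, the polysome ones lay below all monosome values of the same age. The log2 difference was -1.89 ± 0.22 at P0 (limma adjusted p = 3.45e-06) and -0.72 ± 0.27 at E13 (0.0372). The E13 call was lost without monosome library 1 (-0.51, adjusted p = 0.201) or polysome library 0 (-0.48, 0.237). Of all genes tested in WT, 20.7% were called lower and 32.6% higher in polysome RNA at E13, and 20.3% lower and 39.5% higher at P0, with medians of 0.24 and 0.30.

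Of the other WT members at P0, Gabrb1 measured 1.11, 1.04 and 1.88 FPKM in monosome RNA against 4.80, 1.97 and 1.65 in polysome RNA. The pools overlapped, and the log2 difference was 0.63 ± 0.25 (limma adjusted p = 0.0428). That call was lost under 5 of the 7 planned settings that keep all libraries, for example at 0.42 (0.154) after median ratio rescaling. Gabrg1 measured 1.34, 1.48 and 1.61 in monosome RNA against 3.17, 3.24 and 1.34 in polysome RNA, a difference of 0.48 ± 0.22 (adjusted p = 0.0693, and 0.0381 with the replicate block). Gabra2 (-0.18 ± 0.50), Gabra3 (0.17 ± 0.27), Gabra4 (-0.23 ± 0.21) and Gabrb2 (0.14 ± 0.32) were not called, with polysome library 2 low for each. After median ratio rescaling Gabra3 (-0.13) and Gabrb2 (-0.17) took the other sign. Without polysome library 2, Gabrb2 (0.66, adjusted p = 0.0111) and Gabrg1 (0.76, 0.0032) were called higher in polysome RNA, which made 4 members called in place of 2. At E13 the 6 members other than Gabra5 had differences from -0.36 ± 0.26 for Gabra4 to 0.33 ± 0.27 for Gabrg1, none called. Gabrg1 measured 0.042 and 0.082 FPKM in monosome RNA against 0.411 and 0.255 in polysome RNA at E13, with no overlap, and with a pseudocount of 0.1 it was called higher in polysome RNA (1.41, limma adjusted p = 0.025).

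In libraries labelled cKO at E13, 0 of the 6 genes tested were called between the pools by limma. Of all genes, 22.4% were called lower and 22.7% higher in polysome RNA. At an unadjusted p under 0.05, 0 of the 6 passed, against 6430 of the 12302 genes tested. At P0, Gabra5, Gabra2 and Gabra4 were called lower in polysome RNA, against 23.8% of all genes called lower and 25.0% called higher. Gabra5 measured 108 and 100.01 FPKM in monosome RNA against 21.3, 15.8 and 12.4 in polysome RNA (-2.62 ± 0.33, limma adjusted p = 5.15e-06). Gabra2 measured 16.7 and 18.8 FPKM against 3.01, 5.94 and 5.53 (-1.72 ± 0.44, adjusted p = 0.00349). For both genes all polysome libraries lay below both monosome libraries. Gabra4 measured 7.63 and 6.16 against 3.82, 3.93 and 3.41 (-0.74 ± 0.30, adjusted p = 0.0464), and its call was lost without any 1 of the 5 libraries. Gabrb2 (-0.74 ± 0.32, 0.0661), Gabra3 (-0.51 ± 0.35, 0.246) and Gabrb1 (0.26 ± 0.36, 0.587) were not called.

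**Figure D4:**
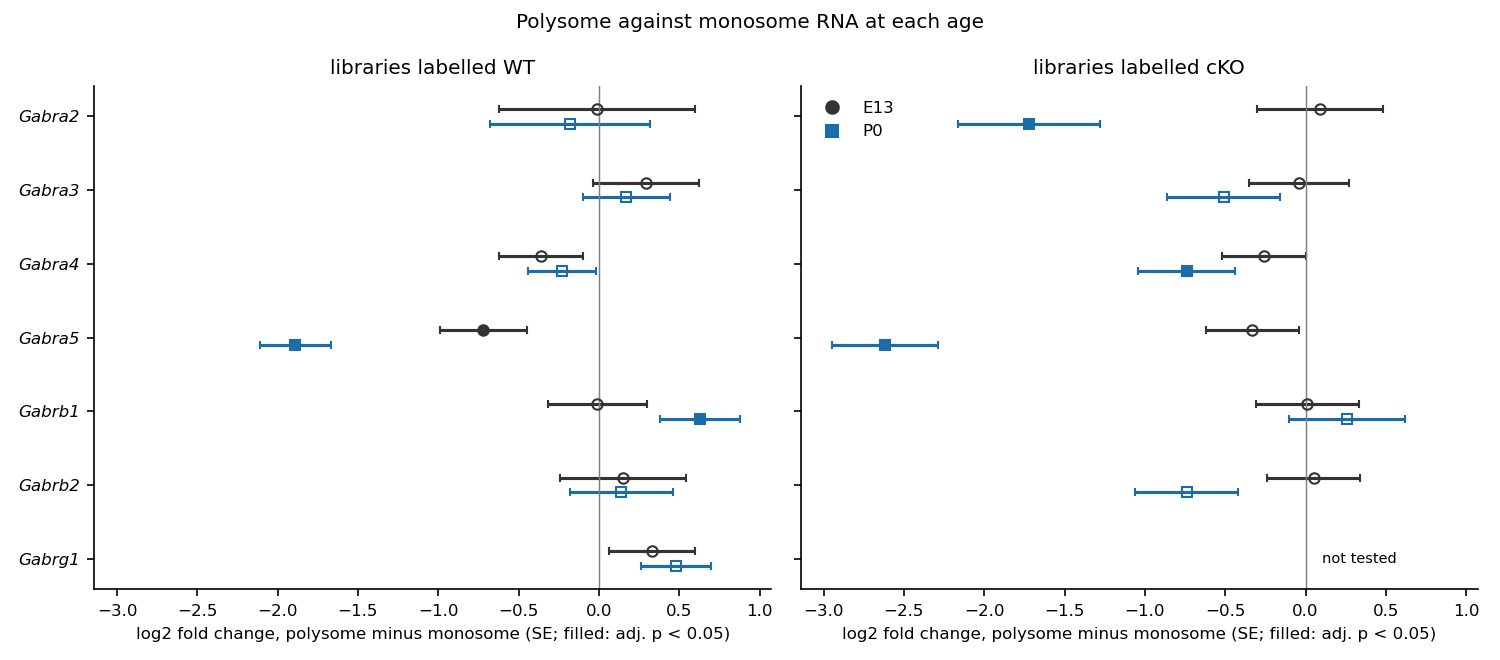
Polysome minus monosome log2 fold change with its SE for each subunit gene at E13 (circles) and P0 (squares), for libraries labelled WT (left) and cKO (right); filled symbols have an adjusted p under 0.05. Gabra5 lies farthest to the left at P0 in both panels (-1.89 and -2.62), and Gabra2 is filled in the cKO panel only, at P0 (-1.72).

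Whether the pool difference itself differed between the ages was tested as an interaction. For Gabra5 in WT the interaction was -1.17 ± 0.35 (limma adjusted p = 0.071), and 0 of 7 members were called against 4.23% of all genes in either direction. Of the 7, 1 (Gabra5) had an unadjusted p under 0.05, as did 2703 of the 12123 genes tested in WT. On the linear scale the ratio of polysome to monosome means was 0.271 at E13 and 0.256 at P0, and with a pseudocount of 0.1 the interaction was -0.14 (adjusted p = 0.925). In libraries labelled cKO the interaction for Gabra5 was -2.29 ± 0.44 (limma adjusted p = 0.00578), the 1 called among 6 members, against 7.80% of all genes. The ratio of means there was 0.456 at E13, where 1 monosome library was at 0, and 0.158 at P0. With a pseudocount of 0.1 the call was lost (-2.27, adjusted p = 0.241). Gabra2 had -1.82 ± 0.59 (0.0644).

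The third comparison asked whether the age or pool effects differed between the labels. Effects were taken within each table and then subtracted, and 0 of the 6 members tested were called by limma in any of the 5 comparisons. The shares of all 12233 genes called were 0.0163%, 0.286% and 0.654% for the age effect in total, monosome and polysome RNA, and 0.00817% and 0% for the pool difference at E13 and P0. At an unadjusted p under 0.05, 1 member passed in total RNA and 1 in monosome RNA (Gabra4 in both), and 1 in the pool difference at P0 (Gabra2). Of all 12233 genes, 760, 1799 and 308 passed at that threshold, in the same order. Gabra4 had a larger age effect in the libraries labelled cKO by 0.78 ± 0.38 in total RNA (adjusted p = 0.804) and 0.97 ± 0.38 in monosome RNA (0.229). Gabra2 had a pool difference at P0 lower by 1.54 ± 0.72 on the log2 scale in libraries labelled cKO (log2 difference -1.54, adjusted p = 0.863). In E13 total RNA the 8 excitatory neuron markers summed to 98.8 to 141 FPKM in libraries labelled cKO and 195 to 367 in WT, and at P0 to 568 to 734 and 527 to 580, in tables that may have been scaled apart. The part of these markers in the age effects of Gabra2 and Gabra4 was not tested. These p-values do not show that the effects are alike, and the median over all genes was itself 0.17 to 0.32 for the age effects and -0.18 and -0.29 for the pool differences.

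The subunits were not equally even across P0 libraries. In several libraries Gabra2, Gabra3, Gabrb1, Gabrb2 and Gabrg1 stood high or low together, while Gabra4 and Gabra5 lay nearer to their group means there. In other libraries Gabra5 deviated more. It lay at -0.46 in WT P0 monosome library 0, where Gabra2 was at 0.13. In cKO P0 polysome RNA it lay at 0.38 in column c0 and -0.35 in c2. WT P0 polysome library 2 lay below its group mean by 1.38 on the log2 scale for Gabra2 (-1.38), and at -1.04 for Gabrb2, -0.57 for Gabra3, -0.56 for Gabrg1 and -0.43 for Gabrb1, but at -0.24 for Gabra4 and -0.15 for Gabra5. WT P0 total library 2 was also low, at -0.88 for Gabra2 and -0.35 for Gabrb2, whereas Gabra5 stood at 0.13. In cKO P0 total column c0, Gabra2 stood at 1.12, Gabrb1 at 1.08 and Gabra3 at 0.91, with Gabra5 at 0.20 and Gabra4 at -0.22. In cKO P0 polysome column c0 the genes went apart, with Gabra2 at -0.50 and Gabra3 and Gabrb2 at 0.39. Column c0 of cKO P0 total RNA had the highest summed endothelial (52.9 FPKM, against 11.6 in c2, with c1 between them) and astrocyte markers (89.8 against 46.2 and 40.5). WT P0 total library 2 had the highest interneuron (363 against 298 and 250) and thalamus markers (6.90 against 2.25 and 2.93). The part of these markers in the subunit values was not tested.

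**Figure D5:**
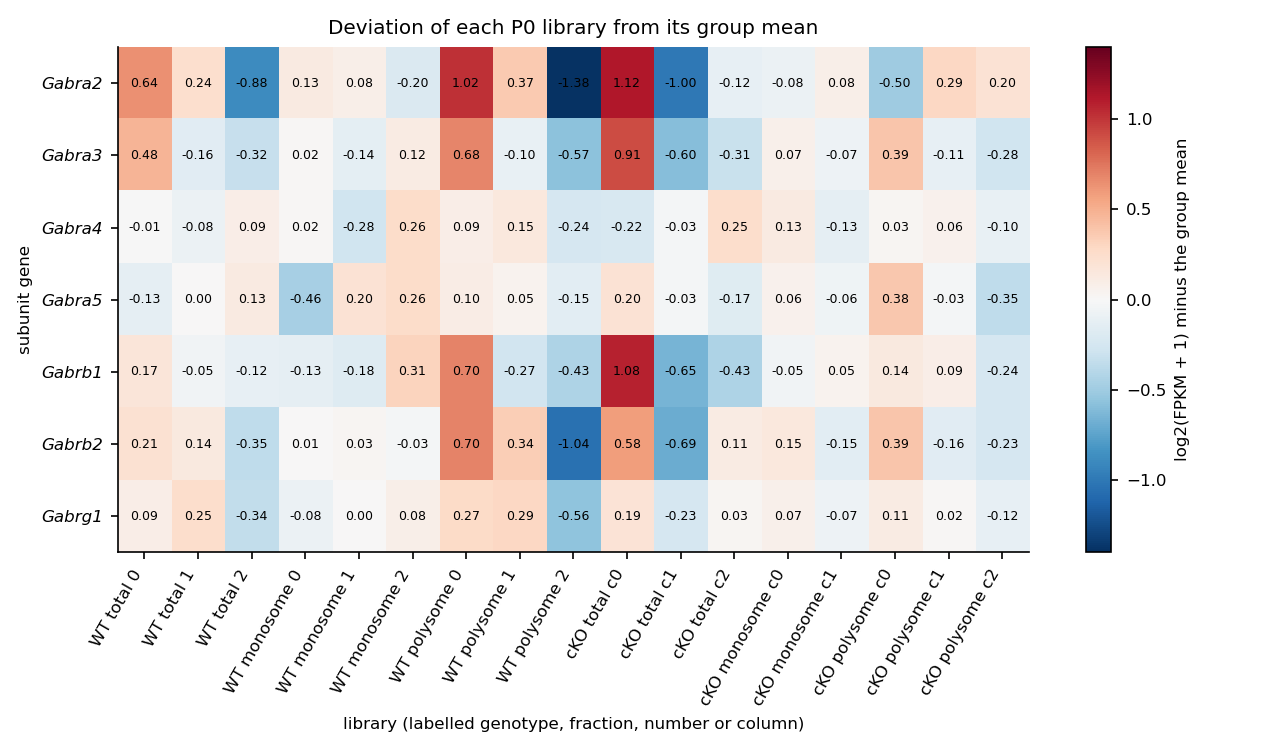
Deviation of each P0 library from the mean of its group in log2(FPKM + 1), for each subunit gene (rows) and library (columns: label, fraction and number or column); red is above and blue below the mean. Gabra2 spans -1.38 in WT polysome library 2 to 1.12 in cKO total column c0, while Gabra4 stays between -0.28 and 0.26.

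Among other GABA-A subunit genes, Gabrd, which encodes a subunit of receptors outside synapses, passed the filter in WT and was called higher at P0 in total RNA (1.19 ± 0.26, limma adjusted p = 0.00139). It was not called between the WT P0 pools (0.10 ± 0.23) and took the other sign there after median ratio rescaling (-0.11).

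Other subunits were low. Gabrg3 had a WT mean of 0.733 FPKM and reached 2.64 FPKM at most. Gabra6, Gabre, Gabrq and Gabrr1 to Gabrr3 stayed under 1 FPKM in every library, and Gabrp reached 4.37 FPKM in 1 cKO E13 polysome library.

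Genes that make, move and gather around the receptor were described by fixed lists in WT total RNA, where 24.4% of all genes were called higher. Both GABA-B receptor genes were called higher at P0, Gabbr2 by 3.55 ± 0.25 (limma adjusted p = 3.98e-08) and Gabbr1 by 1.98 ± 0.27. Of 8 genes tested for GABA synthesis, vesicle loading, uptake and breakdown, 7 were higher and 0 lower, with a median of 2.21 against -0.12 over all genes. Among them, the GABA transporter Slc6a11 differed by 4.25 ± 0.25, the GABA-making enzyme Gad1 by 3.49 ± 0.34 and the vesicular transporter Slc32a1 by 2.42 ± 0.34. Of 5 cation-chloride cotransporters, 2 were higher and 1 lower. Slc12a4 was 1 of the 2 (0.73, limma adjusted p = 0.0326) and lost its call without E13 total library 1 (0.52, 0.261), P0 total library 0 (0.68, 0.081) or P0 total library 1 (0.70, 0.0748). Slc12a5, which lowers neuronal chloride, was higher by 2.10 ± 0.25 (5.12e-06), and Slc12a7 was lower with a log2 fold change of -1.96 ± 0.21 (2.12e-06). Of 19 scaffold, assembly and trafficking genes, 10 were higher and 0 lower (median 0.63), led by the receptor partner Shisa7 (2.87 ± 0.26). For comparison, 12 of 13 ionotropic glutamate receptor genes were higher, with a median of 2.22, among them Grin1 by 3.58 ± 0.30.

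The same lists were counted between the WT P0 pools, where 39.5% of all genes were called higher and 20.3% lower in polysome RNA. Of the 8 genes for GABA synthesis and turnover, 5 were higher in polysome RNA and 0 lower, with the breakdown enzymes Aldh5a1 (1.19 ± 0.20, limma adjusted p = 9.06e-05) and Abat (1.57 ± 0.29, 0.00027) first by adjusted p. Slc32a1, also among the 5 (0.80, 0.0344), lost its call without any of 4 single libraries, with adjusted p-values up to 0.151 (without polysome library 2). Of the 19 scaffold, assembly and trafficking genes, 10 were higher and 2 lower. Gphn, which encodes the scaffold gephyrin, was higher by 1.77 ± 0.19 (1.17e-06), and Zdhhc3, which encodes a palmitoyltransferase, was lower (-2.43 ± 0.17, 5.65e-08). Of 13 glutamate receptor genes, 4 were higher, with Grin1 at 1.27 ± 0.27 and Grin2b at 1.17 ± 0.26, and 0 were lower. The other 2, Grin3a and Gria1, both lost their calls without monosome library 1 (0.86, limma adjusted p = 0.0566, and 0.97, 0.0968) or polysome library 0 (0.68, 0.0537, and 0.88, 0.117). Glrb, the beta subunit of the glycine receptor, was lower (-1.96 ± 0.23, 3.5e-06).

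The genes whose pattern over the 15 WT libraries was most like a member's were taken by Pearson's r of log2(FPKM + 1). The libraries fall into 2 ages and share their scaling, so r is high for genes that stand higher at P0 and is a description only. Gabra5 was closest to Cacng3 (r = 0.998), Gnal (0.996) and Cdkl2 (0.995). Gabrb2 was closest to Scn2a1 (0.996), Shisa9 (0.994) and Arap2 (0.994), and Gabra3 to Pcdh9 (0.993), Dpp6 (0.992) and Shisa9 (0.99). Gabra2 was closest to Cntn3 (0.975), Cdh10 (0.967) and Gria2 (0.966), and Gabra4 to Pclo (0.98), Ephx4 (0.972) and Dusp15 (0.972). Gabrb1 was closest to Grin3a (0.984), Grm3 (0.975) and Pcdha2 (0.973), and Gabrg1 to Tnr (0.982), Wscd2 (0.98) and Rtn4rl1 (0.98). Only Shisa9 appeared for more than 1 member, for Gabra3 and Gabrb2.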

How the data were processed

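Poly(A) RNA of 31 neocortex libraries in 12 groups was measured. Per the submitters' processing notes, the tools were Cuffdiff, Bowtie2 2.0.5.0 and TopHat2 2.0.6, and the builds mm10 and GRCm38. No source used here gives the Cuffdiff version, the gene annotation or how libraries were scaled. The authors' deposited FPKM values, one table per genotype label, come without counts, so depth in fragments is unknown; library sums of FPKM ran from 391659 to 1130655. From steps between low values, 1 fragment was worth 0.552 to 1.668 times its value in the median library. Of 23284 genes listed, 26 with dates or numbers as names were left out.

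log2(FPKM + 1) was tested with limma 3.58.1 (R 4.3.3, intensity trend), two-sided, for genes with a mean of at least 1 FPKM, in 1 fit of 6 groups per table and a joint fit for differences between labels, with Benjamini-Hochberg adjustment over all genes and a threshold of 0.05. The fit was tested on simulated data. WT columns carry title numbers. At P0, equal numbers in WT deviated together across genes (9 correlations from 0.207 to 0.734), so the numbers pair fractions there. At E13 they did so for monosome with polysome RNA (0.411), but not for total RNA with monosome (-0.512) or polysome RNA (-0.538). The main fit used group means without pairing. The replicate block, an alternative for WT only, paired equal numbers at both ages, and across the ages for the age effect. cKO columns were assigned to groups only. The members, the lists and the rule for naming genes (the 7 members, other subunits, and up to 4 called genes per list by adjusted p) were chosen with earlier results of these data known. The 22 lists hold 157 genes, of which 154 were measured. Pseudocounts, filters, rescaling, group subsets, a replicate block and left-out libraries were tried as alternatives. Some items that this rule would name, and the composition of the beta and gamma classes, are not reported here.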

Additional observations from a re-analysis of the deposited data

Results flagged for a closer look

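In the libraries labelled cKO, the polysome minus monosome difference of Gabra5 differed between P0 and E13 by -2.29 ± 0.44 on the log2(FPKM + 1) scale (limma adjusted p = 0.00578), because it was -2.62 at P0 and -0.33 at E13. All 3 P0 polysome libraries lay below both monosome libraries, whereas the E13 pools overlapped, with 1 monosome library at 0 and the other 2 at 1.54 and 0.988 FPKM. Over the alternatives the value ran from -2.58 to -1.90, with adjusted p-values from 0.00314 to 0.241, the last with a pseudocount of 0.1. In WT the same difference was -1.17 ± 0.35 (adjusted p = 0.071), and the difference between the labels in the change with age was not tested.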

How the results depend on the processing

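The age effect kept its direction for each member under every alternative run. A filter at 5 FPKM left 4 members called in each WT fraction, because the other 3 were not tested. Median ratio rescaling moved the share of higher among called genes from 36.4% to 47.6% in the WT monosome age effect, from 61.1% to 50% between the WT E13 pools and from 66.1% to 52.4% between the WT P0 pools, with medians over all genes going from -0.27 to -0.07, from 0.24 to 0.04 and from 0.30 to 0.04. In the age effect between labels in polysome RNA it moved that share from 78.8% to 46.4%, and in monosome RNA from 91.4% to 66.7%. Medians over all genes also went from -0.19 to -0.05 in the WT polysome age effect and, between labels, from 0.32 to 0.13 and 0.23 to 0.09 in the monosome and polysome age effects, from -0.18 to 0.04 in the E13 pools and from -0.29 to -0.02 in the P0 pools. The depth in fragments is unknown, and values under 1 FPKM limit the E13 pool differences.

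Between the WT E13 pools, 1 member was called, against 2 with a pseudocount of 0.1 (Gabra5 and Gabrg1) and 0 without a filter. A fit of only those groups also called 0, but Gabra5 fell below the filter there and was not tested. Between the WT P0 pools, 2 were called, against 1 with a pseudocount of 0.1 or 0.5, without a filter or when fitting only those groups. A filter at 5 FPKM also left 1, because Gabrb1 was not tested there. Without the libraries numbered 2, a setting chosen after seeing the data, 4 were called. In the WT change of the pool difference with age, 0 were called, against 1 after median ratio rescaling (Gabra5, -1.44, adjusted p = 0.0342). In libraries labelled cKO, 3 members were called between the P0 pools, against 5 in a fit of only those groups, and 1 in the change with age, against 0 with a pseudocount of 0.1 and 2 in a fit of only those groups. With the replicate block in WT, 3 members were called between the P0 pools, and the block changed no other member's call.

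Genes called in the WT change of the pool difference numbered 513, against 306 with a pseudocount of 0.1, 30 in a fit of only those groups and 13 without the libraries numbered 2. For differences between labels, genes called in the age effect of total RNA numbered 2, against 0 without a filter. In monosome RNA 35 were called, against 21 with a pseudocount of 0.1, 78 without a filter, 9 after rescaling and 3 in a fit of only those groups. In polysome RNA 80 were called, against 11, 35, 28 and 1 in the same order. For the pool difference at E13, 1 was called, against 8 without a filter, 0 after rescaling and 0 in a fit of only those groups, and at P0 0 were called, against 5 without a filter.

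Signs of uncalled values also moved. With a pseudocount of 0.1, Gabrg1 was at -0.73 in the WT change with age and Gabra4 at -0.02 in the label difference of the E13 pools. After rescaling, Gabra3 was at -0.13, Gabrb2 at -0.17 and Gabrd at -0.11 between the WT P0 pools, Gabra4 at -0.01 in the WT change with age, and Gabrb1 at -0.07 in the label difference of the monosome age effect. Without the libraries numbered 2, Gabra2 was at 0.41 and Gabra4 at 0.02 between the WT P0 pools, and Gabra2 at 0.42, Gabra3 at 0.23 and Gabrb2 at 0.49 in the WT change with age. The cause of these shifts was not tested.

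Leaving out 1 library at a time gave the following ranges. Members called ran from 0 to 1 between the WT E13 pools, 1 to 4 between the WT P0 pools, 0 to 1 in the WT change with age and 0 to 1 between the cKO E13 pools. Genes called ran from 112 to 1927 in the WT change with age and 168 to 1142 in the cKO one. For differences between labels they ran from 0 to 3, 0 to 219 and 2 to 948 in total, monosome and polysome RNA, 0 to 334 in the E13 pools and 0 to 1 in the P0 pools. Between the WT E13 pools Gabra2 ran from -0.51 to 0.50 and Gabrb1 from -0.20 to 0.17. Between the WT P0 pools Gabra2 ran from -0.69 to 0.51, Gabra3 from -0.17 to 0.46 and Gabrb2 from -0.21 to 0.66. In the WT change with age Gabra2 ran from -0.68 to 0.52, Gabra3 from -0.45 to 0.17, Gabra4 from -0.20 to 0.46 and Gabrb2 from -0.36 to 0.51. Between the cKO E13 pools Gabra2 ran from -0.20 to 0.32, Gabra3 from -0.22 to 0.13, Gabra4 from -0.49 to 0.01, Gabrb1 from -0.01 to 0.05 and Gabrb2 from -0.09 to 0.18. In label differences of the age effect, Gabra3 ran from -0.66 to 0.09, Gabra5 from -0.05 to 0.44 and Gabrb2 from -0.24 to 0.40 in total RNA, Gabrb1 from -0.03 to 0.22 and Gabrb2 from -0.27 to 0.03 in monosome RNA, and Gabrb1 from -0.54 to 0.02 in polysome RNA. In the label difference of the E13 pools, Gabra2 ran from -0.40 to 0.61, Gabra4 from -0.23 to 0.43, Gabra5 from 0.00 to 0.67, Gabrb1 from -0.16 to 0.21 and Gabrb2 from -0.24 to 0.03.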
